A study of Homo sapiens with 3 samples.

Results

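Messenger RNA of 10 genes of epithelial cell adhesion was followed in spheroids of drug-sensitive and drug-resistant breast cancer cells. The genes were chosen by symbol: the cadherins CDH1, CDH2 and CDH3, the catenins CTNNA1, CTNNB1, CTNND1 and JUP, the desmosomal linker DSP, the surface glycoprotein EPCAM and the intermediate filament VIM. All 10 were found among the 22499 gene rows with a symbol. CAMA-1 is an established human cell line from an estrogen receptor-positive breast tumor. Its ribociclib-sensitive lineage was marked with the fluorescent protein Venus (transgene row mVenus), and the ribociclib-resistant lineage, obtained by long exposure to this inhibitor of the cell cycle kinases CDK4 and CDK6, with mCherry. Spheroids of 2000 plated cells were 100% sensitive, 50% of each lineage, or 100% resistant, and all were grown with 1 µM ribociclib (labelled with DMSO as well) until day 11 and viably frozen before capture, so no untreated spheroid was sequenced. The resistant lineage is a selected derivative of the same line, and where a library came from more than 1 spheroid the labels do not say how many.

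Cadherins join neighbouring epithelial cells through their outer domains, and catenins tie their tails to actin: p120-catenin (CTNND1) holds the cadherin at the membrane, beta-catenin (CTNNB1) or plakoglobin (JUP) binds the tail, and alpha-catenin (CTNNA1) reaches the actin. Desmosomes are the parallel contacts in which plakoglobin and desmoplakin (DSP) anchor keratin filaments. Loss of E-cadherin (CDH1) with gain of N-cadherin (CDH2) and vimentin (VIM) is the classic read-out of the epithelial-mesenchymal transition, and beta-catenin also acts as a transcriptional partner in WNT signaling.

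The measurement was single-cell RNA, with 1 library per condition, and the authors' annotation assigned 19237 cells to 4 populations. These were 3329 monocultured sensitive, 2059 cocultured sensitive, 6292 cocultured resistant and 7557 monocultured resistant cells. Unique molecular identifiers (UMIs), each of which marks 1 captured RNA molecule, were summed per population and scaled to CPM, the field's usual unit for a gene's part of all UMIs. The populations held 70896822 to 270891547 UMIs, with a median of 27622 to 35443 UMIs per cell. There is no replicate, so no test across samples could be made, and every interval or standard error (SE) below is a 95% Poisson interval or a counting error of summed UMIs, which leaves out the variation between cultures. Ratios are log2 ratios of CPM + 1, and 1.5-fold (0.58 on this scale) is used as a fixed size. The libraries shared 34 to 60 cell barcodes in pairs, of which 7 to 17 were annotated in both. Monocultured sensitive cells differed from the rest in cell state: 89.0% were called G1 against 49.7% to 55.3% in the other populations, and their median mitochondrial share was 20.9% against 15.2% to 17.3%. In coculture barcodes with at least 2 UMIs of 1 transgene, UMIs of the other transgene corresponded to 5.31% resistant-cell RNA in sensitive barcodes and 2.50% sensitive-cell RNA in resistant ones. Because RNA was captured at the 3′ end, isoforms of a gene are not separated.

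The label of a luminal breast line held: all 10 luminal markers (KRT8, KRT18, ESR1, GATA3 and others) reached 1 CPM, and their summed level was 12280 to 14902 CPM. Endothelial markers summed to at most 0.30 CPM and immune markers to at most 1.31 CPM. Fibroblast markers summed to 38.4 CPM in monocultured sensitive, 22.3 in cocultured sensitive, 5.14 in cocultured resistant and 2.64 in monocultured resistant cells, and 2 of the 7 reached 1 CPM. COL3A1 made up 35.2 of the 38.4 CPM, while the defining marker LUM was at 0 UMIs in all 4 populations and DCN had 1 UMI, in cocultured resistant cells. The sums of the basal markers followed the same order, 34.4, 13.7, 3.75 and 2.30 CPM, with MYLK at 29.4 CPM in the first and KRT5 at 0 or 1 UMI throughout.

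Promoter sequences are given for the genes that show most in the data below: DSP, with the highest ratio of variance to mean over cells, JUP, with the largest ratio in the 4 comparisons among members above 10 CPM, and VIM and CDH2, the mesenchymal members that stayed near 0. Each is the 250 bases before a RefSeq start in GRCh38.p14, matched to a single place in GRCh37, the build of the counts, and printed on the gene's strand. Capitals mark the hexamers CACCTG or CAGGTG, which are each other's reverse complement and are the E-box core that SNAI, ZEB and some TWIST complexes can bind. DSP is at chr6:7541654-7541903 (+), JUP at chr17:39942229-39942478 (-), VIM at chr10:17269990-17270239 (+) and CDH2 at chr18:25757095-25757344 (-).
DSP: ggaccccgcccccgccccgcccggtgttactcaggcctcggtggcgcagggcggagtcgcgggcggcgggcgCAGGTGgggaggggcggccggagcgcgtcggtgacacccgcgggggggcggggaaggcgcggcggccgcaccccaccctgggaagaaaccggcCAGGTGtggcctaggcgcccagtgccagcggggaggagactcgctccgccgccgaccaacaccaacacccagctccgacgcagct
JUP: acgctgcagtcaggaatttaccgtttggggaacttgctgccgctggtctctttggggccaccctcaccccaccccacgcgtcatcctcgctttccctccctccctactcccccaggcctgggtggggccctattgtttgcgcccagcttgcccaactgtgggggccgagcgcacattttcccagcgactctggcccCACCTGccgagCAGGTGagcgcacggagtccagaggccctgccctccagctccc
VIM: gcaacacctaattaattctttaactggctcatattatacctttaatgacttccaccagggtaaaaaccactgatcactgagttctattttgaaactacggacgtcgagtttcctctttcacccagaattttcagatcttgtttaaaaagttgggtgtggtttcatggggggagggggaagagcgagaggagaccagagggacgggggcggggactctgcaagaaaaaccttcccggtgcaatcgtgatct
CDH2: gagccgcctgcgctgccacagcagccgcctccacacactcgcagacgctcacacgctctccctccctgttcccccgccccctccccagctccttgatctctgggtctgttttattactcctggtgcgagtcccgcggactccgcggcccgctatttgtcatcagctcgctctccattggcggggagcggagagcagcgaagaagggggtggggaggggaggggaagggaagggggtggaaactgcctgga
Each of the first pair of windows held 2 hexamers, and the VIM and CDH2 windows held none. JUP has another listed window, chr17:39942964-39943213, next to the annotated gene start, which held none, and so has CDH2. Of all 35116 windows in the table, 17.49% held at least 1. The table had 11 windows for 6 of the 10 genes, and 2 of the 11, those printed for DSP and JUP, held a hexamer. The CTNNA1 and CTNNB1 windows held none. No window was listed for CDH1, CDH3, CTNND1 or EPCAM. CpG dinucleotides numbered 33 in the DSP window and 8 in the VIM window, against a median of 11 over all windows. A match is a property of the letters in these windows and was not tied to binding.

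CDH1 (ENSG00000039068, chr16:68771195-68869440), which encodes E-cadherin, was present in every population at a modest and nearly level amount. It stood at 17.3 CPM (16.5 to 18.2) in monocultured sensitive cells, 18.7 CPM (17.7 to 19.7) in cocultured sensitive cells, 18.0 CPM (17.4 to 18.6) in cocultured resistant cells and 14.1 CPM (13.7 to 14.6) in monocultured resistant cells. The first 3 intervals overlap each other and the last lies below them. CDH2 (ENSG00000170558, chr18:25512843-25757910), N-cadherin, was all but absent, with 1, 1, 8 and 5 UMIs in the same order of populations, so its highest level was 0.040 CPM (0.017 to 0.079) and it was too sparse to compare. The upper bound of CDH2 was at most 0.079 CPM in every population.

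CDH3 (ENSG00000062038, chr16:68670092-68761371), the P-cadherin of basal breast epithelium, was the cadherin that separated the lineages. Its level was 3.21 CPM (2.86 to 3.59) in monocultured and 2.36 CPM (2.01 to 2.74) in cocultured sensitive cells, against 1.01 CPM (0.877 to 1.16) in cocultured and 0.882 CPM (0.774 to 1.00) in monocultured resistant cells. Both sensitive intervals lie above both resistant ones, and the 2 resistant populations overlap. The counts behind these levels are small, 309, 167, 202 and 239 UMIs. The summed basal markers were ordered the same way, and MYLK was the only gene of that list that kept this order by itself. KRT5, KRT14, KRT17, TP63 and OXTR did not. The part of basal markers in this difference was not tested.

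**Figure D1:**
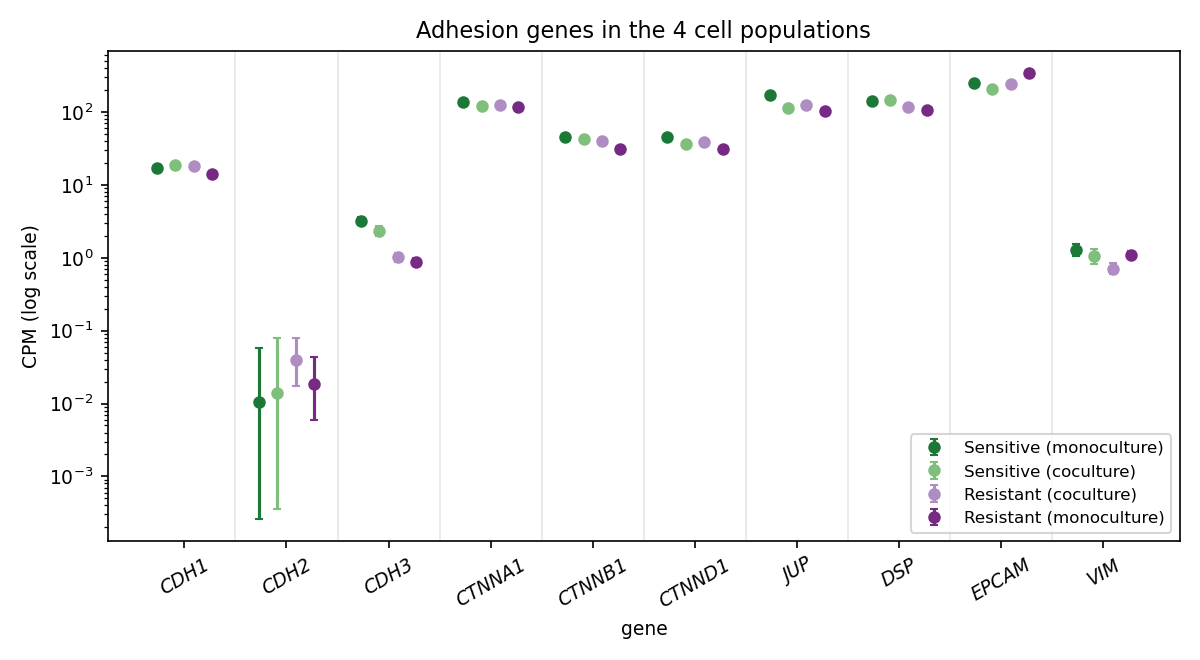
Level of each of the 10 genes in the 4 populations, in CPM on a log axis, with 95% Poisson intervals of the summed UMIs (1 library per condition). CDH2 lies at or below 0.040 CPM in all populations, VIM and CDH3 near 1 to 3 CPM, and the other 7 genes above 14 CPM.

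In the pooled sums, JUP, CTNNA1 and CTNND1 were higher in monocultured sensitive cells than in the 3 other populations, and CTNNB1 was high in both sensitive populations. Within S cells CTNND1 was at 32.4 CPM in monocultured sensitive and 34.1 CPM in cocultured resistant cells. Within G2M cells it was at 33.3 and 36.9 CPM in the same order, and the intervals overlapped in both phases. The CTNNA1 intervals of these populations also overlapped within S and within G2M cells. JUP (ENSG00000173801, chr17:39910856-39943183), plakoglobin, is the member shared by adherens junctions and desmosomes, and had 172 CPM (170 to 175) in monocultured sensitive cells. In cocultured sensitive cells JUP was at 114 CPM (112 to 117), in cocultured resistant cells at 125 CPM (124 to 127) and in monocultured resistant cells at 104 CPM (103 to 106). Its 4 intervals do not overlap, and the monocultured sensitive cells stand apart at the top. CTNNA1 (ENSG00000044115, chr5:137946656-138270723) ran in a narrower range, 140, 121, 126 and 119 CPM in the order monocultured sensitive, cocultured sensitive, cocultured resistant and monocultured resistant. Here the cocultured sensitive and the monocultured resistant cells have overlapping intervals.

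CTNNB1 (ENSG00000168036, chr3:41236232-41301587) was at 45.6 CPM (44.2 to 46.9) in monocultured and 43.3 CPM (41.8 to 44.8) in cocultured sensitive cells. In resistant cells it was at 40.0 CPM (39.1 to 40.9) in coculture and 30.8 CPM (30.1 to 31.5) in monoculture, so the monocultured resistant cells lay below the other 3, and the intervals of the sensitive populations overlap. CTNND1 (ENSG00000198561, chr11:57520715-57587018) had 45.2 CPM (43.9 to 46.6) in monocultured and 36.6 CPM (35.2 to 38.0) in cocultured sensitive cells, and 39.4 CPM (38.6 to 40.3) in cocultured and 31.1 CPM (30.4 to 31.8) in monocultured resistant cells. In these pooled sums no intervals of CTNND1 overlap, and the cocultured populations lie between the monocultures. An annotated locus, ENSG00000288534, overlaps CTNND1 on the same strand, and its part in these counts was not tested.

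DSP (ENSG00000096696, chr6:7541571-7586947), which links desmosomes to keratin, was higher in sensitive than in resistant cells in the pooled sums. It was at 141 CPM (138 to 143) and 147 CPM (144 to 150) in monocultured and cocultured sensitive cells, and at 119 CPM (118 to 121) and 108 CPM (107 to 109) in cocultured and monocultured resistant cells. Both sensitive populations lie above both resistant ones, although in monocultured sensitive cells the level was 242 CPM in 681 cells of 1 cluster and 120 CPM in the 1945 cells of the main one.

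EPCAM (ENSG00000119888, chr2:47572297-47614740), an adhesion glycoprotein of the epithelial surface, was the 1 member highest in monocultured resistant cells. Its level there was 342 CPM (340 to 344), against 245 CPM (243 to 247) in cocultured resistant, 253 CPM (250 to 256) in monocultured sensitive and 205 CPM (202 to 208) in cocultured sensitive cells. In each lineage the cocultured cells were below their monoculture. VIM (ENSG00000026025, chr10:17270240-17279592), the filament protein of mesenchymal cells, stayed near 1 CPM, with 1.29 CPM (1.07 to 1.54), 1.04 CPM (0.820 to 1.31), 0.711 CPM (0.599 to 0.838) and 1.11 CPM (0.986 to 1.24) in monocultured sensitive, cocultured sensitive, cocultured resistant and monocultured resistant cells. These rest on 74 to 300 UMIs per population, and the cocultured resistant cells lie below both monocultures but overlap the cocultured sensitive cells.

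Per cell, the catenins, DSP and EPCAM were seen in most cells of each population. EPCAM had a UMI in 99.0% to 99.8% of cells of a population, JUP in 93.7% to 97.4%, CTNNA1 in 95.5% to 96.2%, and DSP in 94.2% of monocultured sensitive and 90.2% of monocultured resistant cells. CDH1 had a UMI in 36.7% to 44.5% of cells, CDH3 in 2.92% to 8.56%, VIM in 2.21% to 3.80% and CDH2 in 0.030% to 0.127%. Once every cell was thinned to 5000 UMIs, which removes the difference in depth, EPCAM was seen in 80.3% (79.4 to 81.2) of monocultured resistant cells and in 70.2% (68.6 to 71.7), 64.0% (61.8 to 66.0) and 69.4% (68.2 to 70.5) of monocultured sensitive, cocultured sensitive and cocultured resistant cells. JUP was then seen in 57.7% (56.0 to 59.4) of monocultured sensitive cells and 41.2% to 45.6% of the others. VIM was left in 0.366% to 0.595% of cells. No cell type known to lack these genes was in the libraries, so the share that free RNA alone would give was not measured.

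Between cocultured and monocultured sensitive cells, the comparison that asks how growth in 1 spheroid with resistant cells goes with the state of sensitive ones, JUP was 1.5-fold lower in coculture and the other members moved less. Its log2 ratio was -0.59 (SE 0.019, 8100 against 16574 UMIs), just past the 1.5-fold size. EPCAM (-0.30, SE 0.015), CTNND1 (-0.30, SE 0.035), CDH3 (-0.33, SE 0.10) and CTNNA1 (-0.21, SE 0.020) were also lower. CDH1 (0.10, SE 0.050) and DSP (0.060, SE 0.019) were slightly higher, and CTNNB1 (-0.073, SE 0.033) and VIM (-0.16, SE 0.11) were lower by little against their error. The signs of DSP, CTNNB1 and VIM here depended on the processing, turning to -0.090, 0.036 and 0.041 at the far end of the settings tried. DSP was level within G1 cells (-0.023) but higher in cocultured sensitive cells within S (0.27, 0.15 to 0.38) and G2M (0.28, 0.17 to 0.38). Of the 9 members with at least 50 UMIs, 1 was past 1.5-fold and 7 were below 0, with a median of -0.21. Of all 12326 genes tested, 11.0% were past 1.5-fold (5.13% higher and 5.91% lower), so 1 of 9 is near the background, and the median over all of them was -0.050. The JUP ratio was -0.49 within G1 cells, -0.35 within S and -0.33 within G2M cells, and -0.40 with equal weight for each phase, so it fell short of 1.5-fold once the cells were compared within a phase. With equal phase weight CTNND1 was at -0.11, CDH3 at -0.11 and CTNNA1 at -0.14, and the CTNND1 ratio was -0.19 within G1, -0.053 (-0.28 to 0.17) within S and -0.052 (-0.27 to 0.16) within G2M cells.

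Between cocultured and monocultured resistant cells, EPCAM stood out among the members in the lower direction. Its log2 ratio was -0.48 (SE 0.0080, 48898 against 92711 UMIs), and 7 of 6637 genes averaging 10 CPM or more (0.105%) had a lower ratio. The ratio was -0.47, -0.50 and -0.48 within G1, S and G2M cells. VIM was lower as well (-0.30, SE 0.067, 142 against 300 UMIs), by an amount that depends on the pseudocount (-0.57 with 0.1 CPM and -0.052 with 10 CPM). The catenins and CDH1 were higher in coculture: CTNNB1 by 0.37 (SE 0.022), CTNND1 by 0.33 (SE 0.022), CDH1 by 0.33 (SE 0.032) and JUP by 0.26 (SE 0.012). DSP (0.14, SE 0.012), CDH3 (0.096, SE 0.067) and CTNNA1 (0.078, SE 0.012) moved least. No member was past 1.5-fold, and 0.692% of all 13155 genes were (0.661% higher and 0.0304% lower, so 95.6% of the calls were higher, 80.4% with TMM scaling). Of the 9 members, 7 were above 0, with a median of 0.14 against 0.028 over all genes. The 7 include CDH3, whose interval spanned 0 (-0.036 to 0.23) and whose ratio was -0.034 in cells with a mitochondrial share under 15%. The ratios of CTNNB1, CTNND1, CDH1, JUP and EPCAM kept their direction in each of the 3 phases.

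Between the monocultures, which ask what sets the resistant lineage apart under the drug, 8 of the 9 members were lower in resistant cells. CDH3 had a log2 ratio of -1.16 (SE 0.076) and JUP of -0.72 (SE 0.014), and these 2 were past 1.5-fold. CTNNB1 (-0.55, SE 0.026) and CTNND1 (-0.53, SE 0.026) came close to it. DSP (-0.38, SE 0.015), CDH1 (-0.28, SE 0.040), CTNNA1 (-0.23, SE 0.015) and VIM (-0.12, SE 0.085) were lower by less, and EPCAM was higher by 0.43 (SE 0.010). The VIM interval spanned 0 (-0.29 to 0.048), and its ratio was 0.033 in thinned cells. CTNNA1 was at -0.12 with TMM factors. Its intervals reached 0 within S (-0.10, -0.20 to 0.00078) and G2M cells (-0.075, -0.17 to 0.022), with -0.30 within G1 cells. Of all 12968 genes tested, 19.2% were past 1.5-fold, 6.65% higher and 12.5% lower (34.7% of the calls higher, 48.4% with TMM scaling), so the members' 2 of 9 is near the background. Their median was -0.38, against -0.071 over all genes. Within G1 cells JUP was at -0.57, just short of 1.5-fold, and with equal phase weight CTNND1 was at -0.30. CDH3 was at -1.14 within G1 and -1.15 (-1.65 to -0.65) within G2M cells. Within S cells it was at -0.42, with an interval that spans 0 (-0.98 to 0.15). DSP was at -0.46 within G1, -0.20 within S and -0.11 within G2M cells.

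Within the coculture library, where both lineages shared 1 library, the pooled ratios between lineages were nearer 0 than between the monocultures for 8 of the 9 members, VIM being the exception. Genes in general were also less often past 1.5-fold within coculture, 6.12% against 19.2% between the monocultures. The share of all genes with a ratio nearer 0 within coculture is not given here. The 8 of 9 therefore cannot be read as particular to the members. Their nearer ratios did not hold within every phase. DSP was at -0.35 within S and -0.29 within G2M cells of coculture, against -0.20 and -0.11 between the monocultures. CDH3 within S cells was at -0.55 against -0.42, and CTNND1 within G2M cells at 0.19 against -0.18. The change between the 2 comparisons was not tested. CDH3 was lower in resistant cells by 0.74 (SE 0.094) and was the 1 member past 1.5-fold, against 6.12% of all 12772 genes (2.04% higher and 4.09% lower). Its ratio ran from -1.14 with a pseudocount of 0.1 CPM to -0.17 with 10 CPM, and it was not past 1.5-fold with 10 CPM or in thinned cells (-0.53), and with a minimum of 500 UMIs it had too few to be compared. DSP was lower by 0.30 (SE 0.017) and EPCAM higher by 0.26 (SE 0.014). CTNND1 (0.11, SE 0.032), JUP (0.13, SE 0.018) and CTNNA1 (0.058, SE 0.018) were higher in resistant cells, opposite to their direction between the monocultures. For CTNNA1 this was not firm, since its ratio was -0.013 (-0.083 to 0.056) within S cells and 0.0012 in cells with a mitochondrial share under 15%. The JUP intervals reached 0 within S (0.078, -0.00077 to 0.16) and G2M cells (0.066, -0.011 to 0.14). That of CTNND1 reached 0 within S cells (0.13, -0.0076 to 0.26). CDH1 (-0.050, SE 0.044), CTNNB1 (-0.11, SE 0.030) and VIM (-0.26, SE 0.099) were lower. The median of the 9 was -0.050 and that of all genes 0.0010. Each population enters 2 of the 4 comparisons, so the comparisons are not independent of each other.

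**Figure D2:**
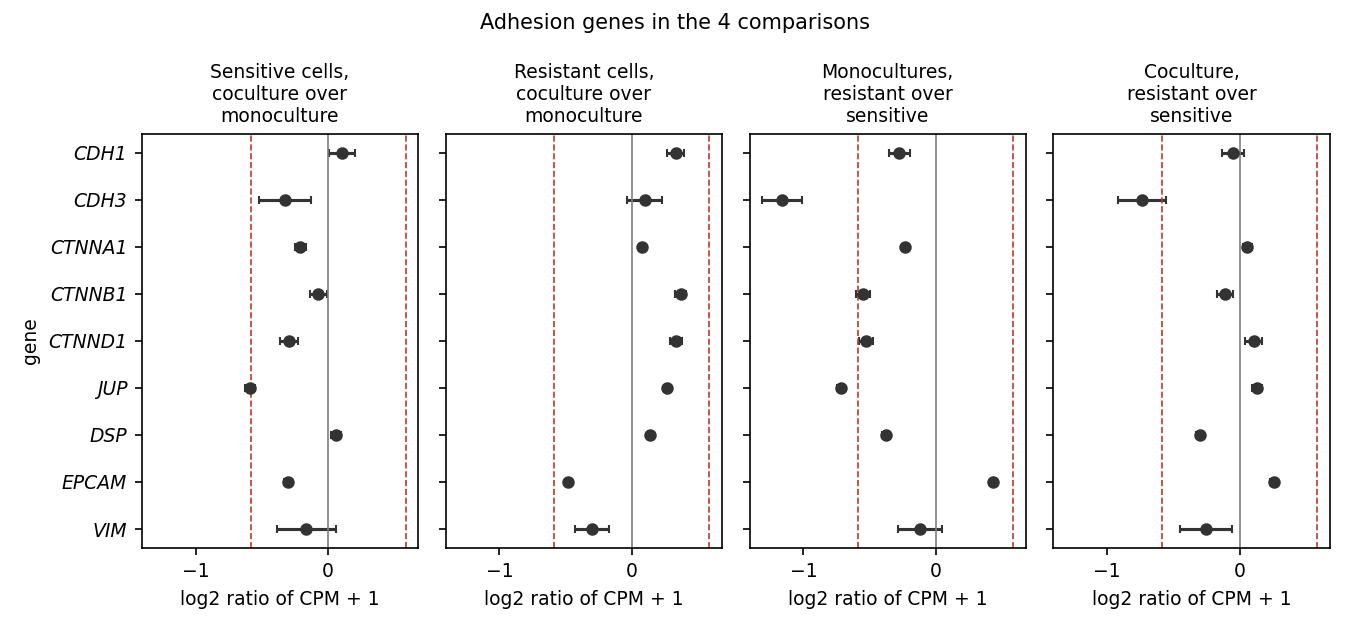
Log2 ratio of CPM + 1 for the 9 members with at least 50 UMIs in each comparison, with 95% counting intervals; dashed lines mark 1.5-fold in either direction. JUP and CDH3 lie past the lower line between the monocultures, CDH3 also within coculture and JUP, narrowly, in sensitive cells, while EPCAM lies above 0 in resistant over sensitive cells and below 0 in coculture over monoculture.

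Levels of several members differed between cell cycle phases, and JUP, CTNND1 and DSP differed most among those with over 10 CPM. JUP was lower in S than in G1 cells by 0.53, 0.40, 0.54 and 0.50 on the log2 scale in monocultured sensitive, cocultured sensitive, cocultured resistant and monocultured resistant cells, and lower in G2M than in G1 by 0.47, 0.32, 0.47 and 0.36. CTNND1 had the same direction in all 4, lower in S than in G1 by 0.30 to 0.53 and in G2M by 0.22 to 0.49. Phase calls rest on the expression of cycle genes and not on a DNA measurement. DSP went the other way late in the cycle: in G2M over G1 its ratio was 0.27 in cocultured sensitive, 0.28 in cocultured resistant and 0.32 in monocultured resistant cells, and -0.026 in monocultured sensitive cells, where DSP was lower in S than in G1 by 0.33.

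Monocultured sensitive cells had 176 S and 190 G2M cells, so their values in these phases are the least precise. Within G1, JUP still ran from 180 CPM (177 to 183) in monocultured sensitive cells to 149 CPM (147 to 152) in cocultured resistant, 128 CPM (124 to 131) in cocultured sensitive and 121 CPM (119 to 123) in monocultured resistant cells. EPCAM changed little with phase, with ratios of -0.023 to 0.19 over G1, and CTNNB1 was slightly higher in G2M than in G1 in all 4 populations (0.12 to 0.14, with 3 intervals above 0). CDH1 was lower in S than in G1 in cocultured resistant (-0.20, -0.31 to -0.092) and monocultured resistant cells (-0.22, -0.32 to -0.12), while its G2M intervals reached 0 in all populations. CTNNA1 was higher in G2M than in G1 by 0.094 to 0.16 in the 3 populations other than monocultured sensitive cells.

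**Figure D3:**
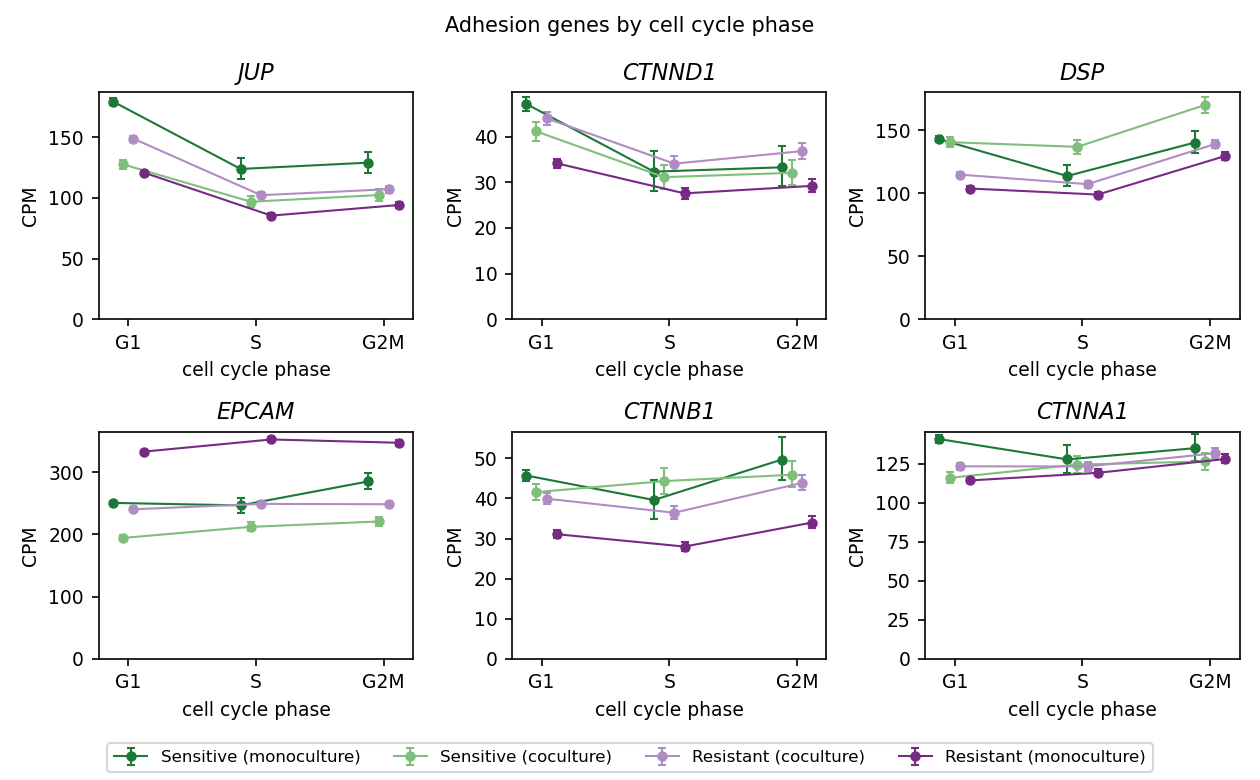
CPM of 6 members in G1, S and G2M cells of each population, with 95% Poisson intervals; the lines join phases of 1 population. JUP and CTNND1 are highest in G1 in every population, DSP is highest in G2M in 3 of the 4, and EPCAM of monocultured resistant cells lies above the other populations in every phase.

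Among the authors' 14 clusters, given by number, cluster 8 had the highest level of 5 members. It held 749 cells, 90.9% of them monocultured sensitive and 99.6% in G1, with a median of 21335 UMIs. DSP was at 246 CPM (238 to 253) in it, against a median of 121 CPM over clusters and a lowest value of 85.0 CPM in cluster 11. JUP reached 209 CPM, CTNNA1 176 CPM, CTNND1 63.5 CPM and CDH3 4.23 CPM in cluster 8. The clusters were built from these same cells and genes, so these values describe them and test nothing. Taking only monocultured sensitive cells, DSP was at 242 CPM (235 to 250) in the 681 cells of cluster 8 and at 120 CPM (118 to 123) in the 1945 cells of cluster 4, and EPCAM was at 319 CPM (310 to 328) against 233 CPM (229 to 237). CTNNB1 did not separate these 2 clusters, with 46.8 CPM (43.4 to 50.4) and 44.4 CPM (42.7 to 46.1). CDH1 was highest in cluster 12, at 33.2 CPM (28.1 to 38.8), a group of 185 cells of which 84.3% were monocultured sensitive. The depth of these clusters differs (a median of 29489 UMIs in cluster 4 and 24317 in cluster 12), and its part in these levels was not tested.

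**Figure D4:**
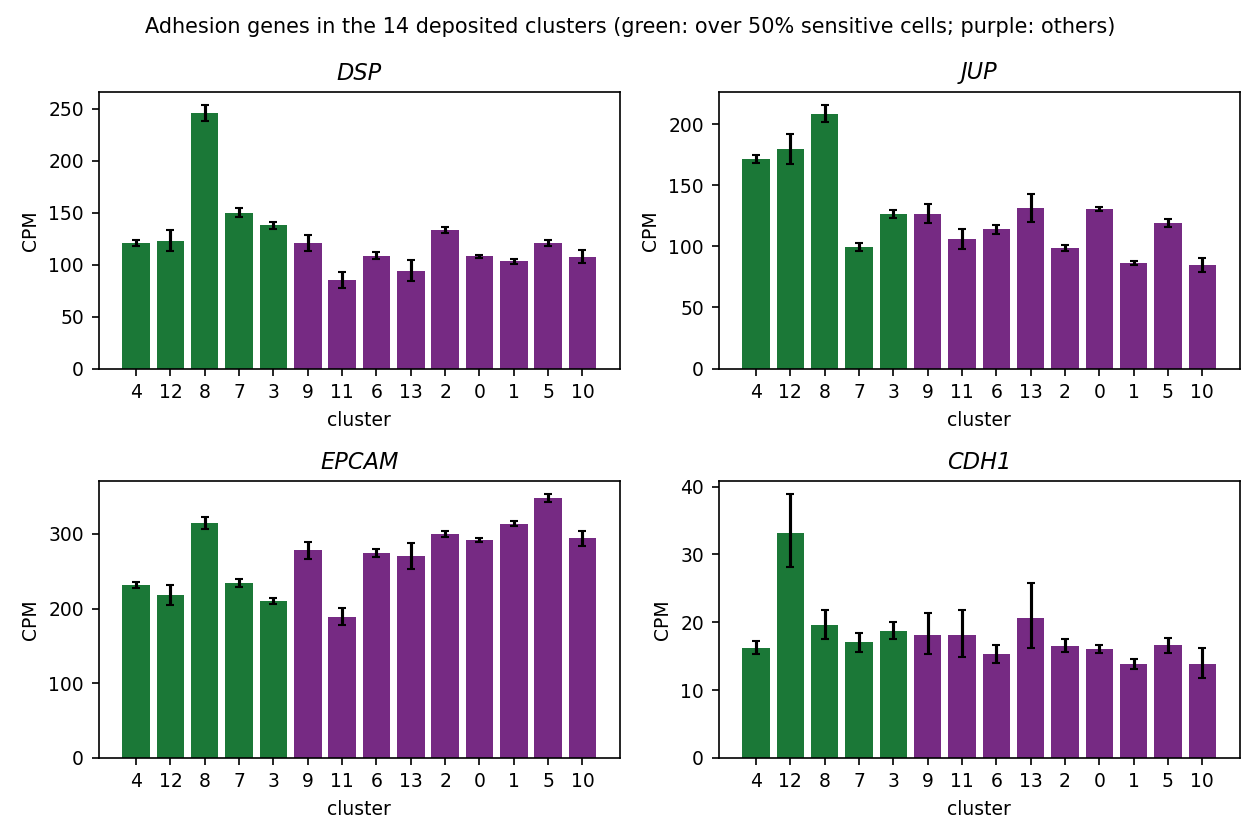
CPM of DSP, JUP, EPCAM and CDH1 in each of the 14 clusters with 95% Poisson intervals, ordered from the highest to the lowest share of sensitive cells; green bars are clusters with over 50% sensitive cells. Cluster 8 stands out for DSP at 246 CPM, cluster 5 is highest for EPCAM at 348 CPM, and cluster 12 for CDH1 at 33.2 CPM.

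The spread between cells gave the same picture for DSP. In cells thinned to 5000 UMIs, the variance of a gene's UMIs divided by its mean is 1 where counting alone sets the spread. In G1 cells of the sensitive monoculture it was 1.42 for DSP, 1.22 for EPCAM, 1.16 for JUP, 1.16 for CTNNB1, 1.08 for CTNNA1 and 1.03 for CTNND1. CDH1 (0.993), CDH3 (1.05) and VIM (0.995) were near 1, as sparse genes must be. DSP remained above the other members in G1 cells of the other populations, at 1.18 to 1.23, and JUP ranged from 1.07 to 1.19 there. These values were not adjusted for the mean, which was 0.790 UMIs for DSP and 0.263 for CTNNB1 in G1 cells of the sensitive monoculture.

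Of the wider junction lists, the adaptor, desmosome and tight junction genes were most often past 1.5-fold between the monocultures, as were all genes (19.2% there). Ratios of all list genes here and below are of pooled sums, and are not given within a phase or under other settings. Of 18 further catenin partners and junction adaptors, 15 were tested, and 7 were past 1.5-fold lower in resistant than in sensitive monoculture and none higher, with a median of -0.53. ENAH, an actin regulator at junctions, was at 91.8 against 216 CPM (-1.23), LIMA1, an actin binder tied to alpha-catenin, at 37.2 against 87.3 CPM (-1.21), and NECTIN4, a junction receptor, at 13.3 against 28.9 CPM (-1.07). The background in this direction is the 12.5% of genes given above, and members of this list differ in abundance from the average gene. In the sensitive lineage the same 3 genes were the most changed of the list in coculture, NECTIN4 with -0.93, LIMA1 with -0.75 and ENAH with -0.69, and 3 of 15 were past 1.5-fold lower where 5.91% of all genes were. In resistant cells ENAH was higher in coculture by 0.34, VCL, the actin linker vinculin, by 0.34 and ZYX, a zyxin of actin tension sites, by 0.49, with 0 of 15 past 1.5-fold where 0.692% of all genes were. Within coculture 1 of 15 was past it: CTNNAL1, related to alpha-catenin, at 3.83 against 9.28 CPM (-1.09), near the 4.09% of all genes lower by that size.

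Among 14 further desmosome genes, 9 were tested between the monocultures and 2 were past 1.5-fold lower, where 12.5% of all genes were, so the count is near the background. These were PERP, a desmosomal tetraspan protein, with 18.4 against 57.8 CPM (-1.60) and PKP2, a plakophilin, with 4.87 against 9.12 CPM (-0.79). PERP was also at 26.5 CPM in cocultured sensitive cells, a ratio of -1.10 to their monoculture, and was the 1 of 8 tested that passed 1.5-fold there, near the 5.91% of all genes lower by that size. None of 9 was past it in resistant cells by culture or within coculture, where 0.692% and 6.12% of all genes were, so nothing can be read from these counts of 0. PKP2 was higher by 0.51 in cocultured than in monocultured resistant cells, and within coculture PERP was lower in resistant cells by 0.49 and DSC2, a desmocollin, higher by 0.41.

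Of 19 tight junction genes and EPCAM partners, 18 were tested, with 6 past 1.5-fold lower between the monocultures and 3 lower in sensitive cells by culture, with medians of -0.47 and -0.34, where 12.5% and 5.91% of all genes were lower by that size. The summed level of the list was 1402.8 CPM in resistant and 1380.5 CPM in sensitive monoculture. Of the 18, 4 were higher in resistant monoculture, among them the claudins CLDN3 (0.37, 550 against 424 CPM) and CLDN7 (0.39, 278 against 212 CPM). CGN, cingulin, was lower between the monocultures by 0.71 and MARVELD3 lower in cocultured sensitive cells by 0.76. None of the 18 was past 1.5-fold in resistant cells by culture or within coculture, where 0.692% and 6.12% of all genes were. Within coculture CLDN3, a claudin, was higher in resistant cells by 0.33. Of 19 other cadherins, 4 or 5 were tested in a comparison, 3 reached 1 CPM in any population, and the highest, CDH24, stayed at or below 5.56 CPM. In each of 3 comparisons 1 of those tested was past 1.5-fold, CDH7 lower in sensitive cells by culture and between the monocultures and CDH10 higher within coculture, where 5.91%, 12.5% and 2.04% of all genes passed in those directions, and 0 of 5 in resistant cells by culture.

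Among transcription factors that drive or restrain the epithelial-mesenchymal transition, several classic drivers were near 0. SNAI1 was at 0.978 to 1.17 CPM, ZEB1 at 0.0935 to 0.145 CPM and ZEB2 at 0 or 1 UMI, and TWIST2 at 0 UMIs. SNAI2 had 49, 13, 4 and 5 UMIs in monocultured sensitive, cocultured sensitive, cocultured resistant and monocultured resistant cells. Its ratio between the monocultures was -0.57, short of 1.5-fold, and its highest level, 0.509 CPM, lay below the pseudocount of 1 CPM. TWIST1 was at 11.3 CPM in monocultured sensitive cells against 3.81 CPM in cocultured sensitive (-1.35) and 4.74 CPM in monocultured resistant cells (-1.10), and was the 1 gene of 9 and of 10 tested past 1.5-fold in these comparisons, near the 5.91% and 12.5% of all genes that were lower by that size. TCF3, an E-protein partner of such factors, was the most abundant of the list at 36.2, 38.4, 53.9 and 53.8 CPM in monocultured sensitive, cocultured sensitive, cocultured resistant and monocultured resistant cells, higher in resistant cells by 0.56 between the monocultures and 0.48 within coculture. Of the epithelial regulators, GRHL2 stayed within 16.7 to 20.5 CPM, ESRP1 was higher in coculture by 0.42 in sensitive and 0.26 in resistant cells, and OVOL2 was lower in cocultured resistant cells by 0.35 against their monoculture and by 0.53 against cocultured sensitive cells. Of 14 mesenchymal genes, 9 were tested in each comparison. COL3A1, a fibrillar collagen, had 35.2, 18.7, 2.12 and 0.181 CPM in monocultured sensitive, cocultured sensitive, cocultured resistant and monocultured resistant cells, and was past 1.5-fold in all 4 comparisons: sensitive cells by culture (-0.88), resistant cells by culture (1.40), between the monocultures (-4.94) and within coculture (-2.66). The 2.12 CPM of cocultured resistant cells comes from a library in which sensitive cells had 18.7 CPM. Resistant barcodes there held 2.50% sensitive-cell RNA by the transgene estimate. Cocultured resistant cells also made up 6.28% of cluster 3 and 4.17% of cluster 7, which were mostly sensitive. The part of either in the 1.40 was not tested. ACTA2, an actin of contractile cells, was the other gene of the list past 1.5-fold, between the monocultures (-0.85) and within coculture (-0.79), at 1.26 CPM or less. The list thus had 1, 1, 2 and 2 of 9 past 1.5-fold in the order sensitive by culture, resistant by culture, monocultures and within coculture, where 11.0%, 0.692%, 19.2% and 6.12% of all genes were. S100A4 (117 to 163 CPM) and ITGB1 (78.8 to 111 CPM) were the abundant ones, with ratios within 0.48 of 0.

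For beta-catenin, the genes around its destruction complex and its targets were also read. Of 17, 14 were tested between the monocultures, with 3 past 1.5-fold lower and a median of -0.39, where 12.5% of all genes were lower by that size and the median was -0.071. Of the 14, 10 were below 0 and 4 above, among the latter AXIN1 of the destruction complex at 0.55. RNF43, a WNT target that removes WNT receptors, was at 17.3 CPM in monocultured sensitive, 13.1 CPM in cocultured sensitive, 7.34 CPM in cocultured resistant and 5.52 CPM in monocultured resistant cells, a ratio of -1.49 between the monocultures and -0.76 within coculture. Too sparse to compare were AXIN2, with 2 to 8 UMIs per population, LGR5, with 0 or 1, and NKD1, with 0. Others of the list passed the minimum and pointed both ways between the monocultures. DKK1 was at -1.21 (0.340 against 2.10 CPM), LGR4 at -0.57 and ZNRF3 at -0.46. TCF7 was at 0.074, NOTUM at 0.093 and LEF1 at 0.17. TCF7L2, a DNA-binding partner of beta-catenin, was at 13.6 CPM in monocultured and 22.0 CPM in cocultured resistant cells (0.65), and was the 1 of 13 past 1.5-fold there, where 0.661% of all genes were higher by that size. CSNK1A1, a kinase of the destruction complex, was at 331 CPM in monocultured sensitive, 234 CPM in cocultured sensitive and 221 CPM in monocultured resistant cells.

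**Figure D5:**
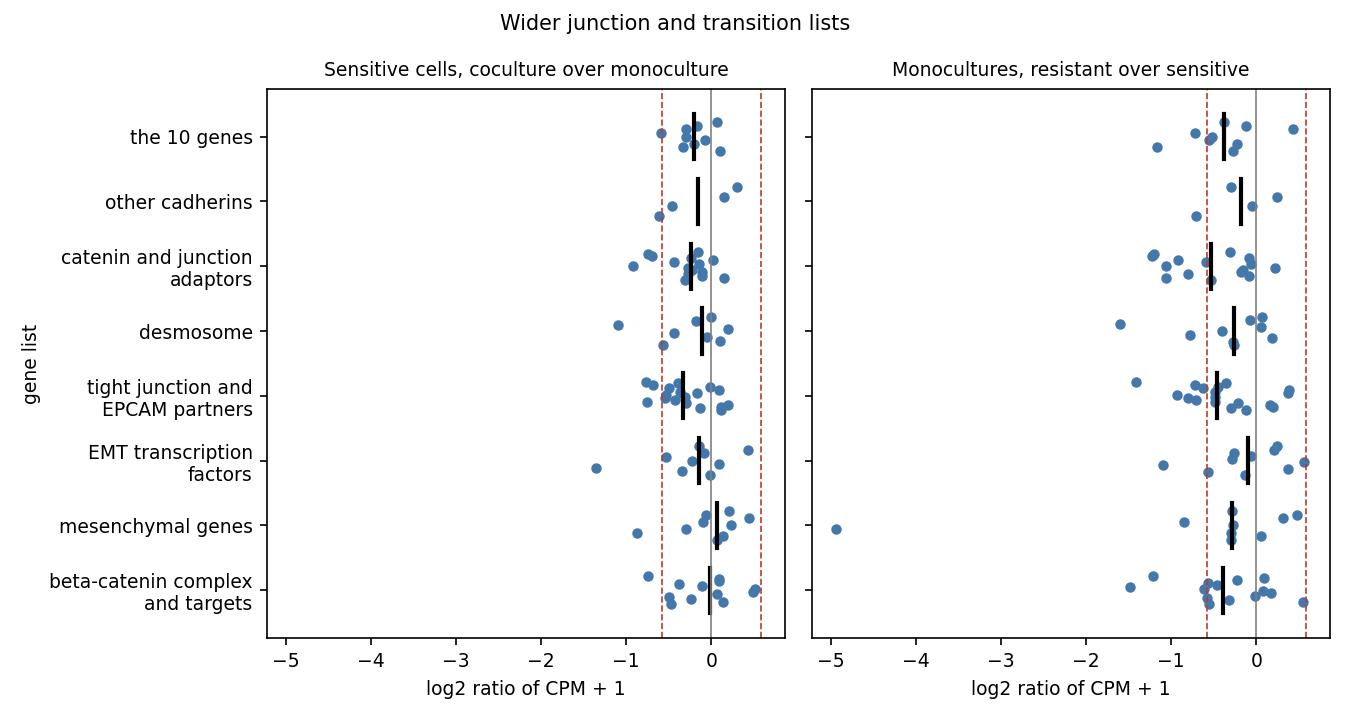
Log2 ratios of CPM + 1 of the tested genes of each list (points) with the list's median (black bar), for sensitive cells by culture and between the monocultures; dashed lines mark 1.5-fold. Catenin and junction adaptors have medians of -0.24 and -0.53, and the point at -4.94 is COL3A1.

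Over the 12 profiles of population by phase, the genes whose log2(CPM + 1) ran most like a member were, of 2294 or 2295 candidates with a mean of at least 50 CPM, MRPL58 for EPCAM (Pearson r 0.99), ZFAND6 for CTNND1 (0.96), ACTN4 for CTNNB1 (0.95), TAX1BP1 for JUP (0.95), SRPK2 for DSP (0.93) and TPM4 for CTNNA1 (0.93). Next came DDRGK1 and NDUFS4 for EPCAM, COPA and RNF13 for CTNND1, THOC2 and CAPZA2 for CTNNB1, SPINT1-AS1 and CSNK1A1 for JUP, BPTF and SLC39A6 for DSP, and UBE2B and SPPL2A for CTNNA1, at r 0.85 to 0.96. Among the members themselves CTNND1 and JUP ran together (r 0.89), as did CDH1 and CTNNB1 (0.83), and CDH1 ran against EPCAM (-0.79). These profiles come from 3 libraries whose depth they share, each holds cells of 1 phase, and they are not independent. Differences between phases thus enter r, and the values describe likeness over 12 points only.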

How the data were processed

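The values come from 3 single-cell libraries (10x 3′ v3), 1 per condition. Cell Ranger 3.0.2 and GRCh37 are named in the submitters' processing notes. The deposited tables hold raw UMI counts, genes by barcodes. Their deposited annotation of kept cells gives UMI and gene counts, the mitochondrial percent, library, phase, cluster and population; Seurat made the phases and clusters. A further 11 annotation columns were not used. Rows without a symbol, 0.523% to 0.591% of UMIs, were left out, after which UMI totals differed from the annotated counts by at most 6 per cell. The methods state removal of barcodes with a scrublet score above 0.25, and no doublet caller was run here. Populations in monoculture rest on the library: 1314 of 3329 sensitive and 3446 of 7557 resistant monoculture cells had at least 2 UMIs of their own transgene. In coculture, 1127 of 2059 sensitive and 3932 of 6292 resistant cells had, so the annotation does not follow the methods' rule of at least 2 UMIs, and populations were used as annotated.

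UMIs were summed per population and given as CPM with exact Poisson intervals, shares with exact (Clopper-Pearson) intervals, at the 95% level, which cover counting error alone. Ratios used a pseudocount of 1 CPM and a minimum of 50 UMIs summed over both populations. With 1 library per condition no p-value was computed, since cells are not replicates. The ratio and its counting error were tested on simulated data. Cells were thinned to 5000 UMIs with a fixed seed. TMM factors came from edgeR 4.0.16 (R 4.3.3) as scaling only, and the rest was computed with scipy 1.17.1 and numpy 2.4.6 in Python 3.11.15. Gene positions were taken from GENCODE 44 on GRCh37, which may differ from the annotation behind the counts. Named are the 10 members, and from each list at most the 3 genes with the largest absolute log2 ratio per comparison among those with a mean of at least 5 CPM, and, for members averaging at least 20 CPM, the 3 most alike genes averaging at least 50 CPM. SNAI1, SNAI2, ZEB1, ZEB2, TWIST2, CDH7, CDH10, CDH24, CLDN7, AXIN2, NKD1, LGR5 and ACTA2 were named after their values were seen. So were DKK1, ZNRF3, TCF7, NOTUM and LEF1, and not every gene under the rule is named. The members and lists were chosen with earlier results of these data known. PECAM1 was not matched. The values of 1 gene of the tight junction list are not reported here.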

Additional observations from a re-analysis of the deposited data

Results flagged for a closer look

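The catenins pointed in opposite directions in the 2 lineages for the same contrast, coculture over monoculture, which is what marked them for a closer look. The share of all genes that did so is not given here. Nor was the direction limited to catenins: of 15 junction adaptors tested, 13 were below 0 in sensitive and 10 above 0 in resistant cells. CTNNA1 had a log2 ratio of -0.21 in sensitive and 0.078 in resistant cells, CTNNB1 of -0.073 and 0.37, CTNND1 of -0.30 and 0.33, and JUP of -0.59 and 0.26. With 1 library per condition the difference was not tested, and each value carries counting error only. The CTNNA1 value in resistant cells was 0.0070 with TMM factors, less than its counting SE of 0.012, so its opposite direction rests on the scaling. The CTNNB1 value in sensitive cells turned to 0.036 when only cells with at least 2 UMIs of their own transgene were used. Within S cells CTNNB1 was at 0.16, and within G1 and G2M cells it was -0.13 and -0.11, while JUP was lower in sensitive and higher in resistant cells in all 3 phases. CTNND1 in sensitive cells was -0.19 in G1 but -0.053 in S and -0.052 in G2M cells, and CTNNA1 was -0.28 in G1 but -0.038 in S and -0.094 in G2M cells, and for both genes the S and G2M intervals span 0.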

How the results depend on the processing

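No paired analysis was possible because there is 1 library per condition. Against 13 planned settings and 1 added after seeing the data (cells with under 40000 UMIs), the number of members past 1.5-fold moved as follows. In sensitive cells by culture it was 1 and became 0 with a pseudocount of 10 CPM, with TMM factors, in G1 cells only, in cells with 2 or more UMIs of their own transgene, in cells with a mitochondrial share under 15%, with equal weight for each phase and with cells thinned to 5000 UMIs. The JUP ratio behind it ranged from -0.64 to -0.40. Between the monocultures it was 2 and became 1 with a pseudocount of 10 CPM, in G1 cells only and with equal phase weight, and 4 (CTNNB1 and CTNND1 added) without mitochondrial genes in the library size and with the mean of each cell's own CPM. It was 3 (CTNNB1 added) in cells with a mitochondrial share under 15% and in thinned cells. Within coculture it was 1 and became 0 with a pseudocount of 10 CPM, with at least 500 UMIs and with thinned cells. In resistant cells it stayed at 0 under all 14 settings. Of the 36 member ratios, 5 changed sign under some setting: DSP (-0.090 to 0.17), CTNNB1 (-0.14 to 0.036) and VIM (-0.33 to 0.041) in sensitive cells by culture, CDH3 in resistant cells by culture (-0.034 to 0.22) and VIM between the monocultures (-0.30 to 0.033). EPCAM kept its sign in all 4 comparisons under every setting. TMM moved the median of genes averaging 10 CPM or more between the monocultures from -0.061 to 0.048, and JUP there to -0.61 and EPCAM to 0.55. The share of all genes past 1.5-fold moved most with the pseudocount: with 10 CPM it was 3.21%, 0.122%, 6.81% and 1.36% for sensitive cells by culture, resistant cells by culture, the monocultures and within coculture, and with 0.1 CPM 17.0%, 2.65%, 28.4% and 11.7%. Without a minimum of UMIs it was 6.05%, 0.404%, 11.1% and 3.48%, with TMM factors 0.426% and with thinned cells 1.09% in resistant cells by culture, and with equal phase weight 5.72% in sensitive cells by culture. The CDH3 ratio between the monocultures ranged from -1.75 (0.1 CPM) to -0.28 (10 CPM). The cause of these moves was not tested. CDH3 and VIM rest on few UMIs, and depth limits what can be said of CDH2.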
